A study of Mus musculus with 4 samples.

Results

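The genes described here are 40 nuclear genes of oxidative phosphorylation and the tricarboxylic acid (TCA) cycle, listed by symbol, with earlier results of these data known. They comprise 8 subunits of complex I, 4 of complex II, 4 of complex III, 5 of complex IV, 4 of complex V (the ATP synthase), 13 enzyme genes of the TCA cycle or its branches and 2 subunits of pyruvate dehydrogenase. Of these, 39 had a probe named for them among the 45526 genes and unnamed transcripts on the array, and Cox5b, a subunit of complex IV, was not matched. The 39 were read well above background on all 4 arrays, so none entered the test through 1 genotype alone. The study compared activated CD4+ T cells of wild-type and Irf4-/- mice, with 2 arrays per genotype from separate experiments. Irf4 encodes a transcription factor that is induced by T cell receptor signalling. In both genotypes the cells were naive CD4+ cells (CD62L+CD44-) sorted from the spleens of male C57BL/6 mice and stimulated with an antibody to CD3 in the presence of mitomycin C-treated antigen-presenting cells of the same strain. A further sort recovered the living CD4+ cells on day 2, the time named in the sample titles, although a protocol text names shorter cultures. The age of the mice, the number pooled per sample and the kind of Irf4 allele are not given in the sources used here.

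Oxidative phosphorylation couples the oxidation of NADH and succinate to ATP synthesis in the inner mitochondrial membrane. Complexes I and II pass electrons to ubiquinone, complex III passes them to cytochrome c, complex IV reduces oxygen, and complex V makes ATP from the proton gradient. The TCA cycle in the matrix supplies the NADH and succinate, and pyruvate dehydrogenase feeds it with acetyl-CoA made from pyruvate. Activated CD4+ T cells enlarge their mitochondria and use both glycolysis and respiration while they grow and divide.

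Levels below are log2 signals minus the 75th percentile of the same array, so 0 is the level at that percentile, and a difference is the knockout mean minus the wild-type mean. A level belongs to its probe and is not set against that of another gene. Values on the arrays are given in the order wild-type replicate 1, wild-type replicate 2, knockout replicate 1, knockout replicate 2. Irf4 itself read 5.03 and 4.74 in the wild type and 4.23 and 4.04 in the knockout, a difference of -0.75 ± 0.20 (SE, n = 2 per genotype) with a limma adjusted p of 0.231 (0.0258 to 0.970 over 13 alternative settings, 2 of which called it). Both knockout arrays were lower, but the position of the probe relative to the deletion is not known from the files, so this reading does not check the genotype. Between 25677 and 28725 probes per array were well above background. The correlation over genes was 0.992 between the wild-type arrays, 0.989 between the knockout arrays and 0.978 to 0.986 across genotypes. All 12 T cell marker genes were above background in both genotypes, with Cd4 at 5.83, 5.51, 5.82 and 5.75. Their differences ran from -0.48 (Cd2, limma adjusted p 0.373) to 0.86 (Cd5, limma adjusted p 0.130), with 6 negative and 6 positive. Both knockout arrays were above both wild-type arrays in 3 of the 12 (17.9% over all genes) and below them in 3 (21.3% over all genes). The summed linear signal of 8 B cell markers, relative to the 75th percentile, was 3.07 and 1.69 in the wild type and 6.94 and 3.02 in the knockout, against 1626 to 1798 for the T cell markers. The B cell markers differed by -0.84 (Cd79a, limma adjusted p 0.800) to 1.87 (Cd72, limma adjusted p 0.0981), with 7 of the 8 positive. The sums of 2 CD8 genes were 8.77 and 9.29 against 4.76 and 4.45, and those of 4 NK markers 0.673 and 1.33 against 2.95 and 3.67. They rest mainly on Cd8b1 (-0.98, limma adjusted p 0.0979) and Klrd1 (1.87, limma adjusted p 0.157), the only genes of those lists that were tested. The sums of 12 myeloid markers were 27.2 and 25.8 against 29.2 and 27.3. Of the 6 myeloid markers tested 5 were positive. Both knockout arrays were above both wild-type arrays in 4 of the 6 (17.9% over all genes) and below them in 1 (21.3% over all genes). The 4 were Tyrobp (1.87, limma adjusted p 0.0650), Fcer1g (0.90, adjusted p 0.259), Cd68 (0.60, adjusted p 0.249) and Cst3 (0.24, adjusted p 0.794). Itgam was the 1 below, at -0.30 (limma adjusted p 0.755), and Csf1r differed by 0.01. The myeloid genes Lyz2, Itgax, Adgre1 and Fcgr3 and the NK genes Ncr1 and Klre1 were on no array above background. The part of these cells in the results was not tested. In such bulk samples fewer cells of a type and less RNA per cell cannot be told apart, and a change of all transcripts together would be removed by the scaling.

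None of the 39 measured genes of the respiratory chain, the ATP synthase, the TCA cycle or pyruvate dehydrogenase passed the test between the genotypes. Of the 39 genes, 0 were called higher and 0 lower by limma at an adjusted p under 0.05, and at an unadjusted p under 0.05 there was 1 in each direction. Over the whole array 151 of 20505 genes were called, which is 0.736%, with 0.493% higher and 0.244% lower. At the unadjusted threshold the share over all genes was 11.4%, with 6.35% higher and 5.01% lower. The differences of the 39 genes ran from -0.49 (Idh2) to 0.55 (Mdh1) around a median of -0.02, the same median as over all genes tested. A negative difference was found for 20 of the 39 genes, or 51.3%, against 53.3% of all genes. The median size of the difference without its sign was 0.07, against 0.18 over all genes, and 36 of the 39 differences were smaller than 0.25, against 62.5% of all genes. The median size depended on the processing. It was 0.09 against 0.12 with normexp background correction, 0.15 against 0.22 with median scaling and 0.07 against 0.18 with quantile normalization. None of the 39 exceeded 1 on the log2 scale, against 5.78% of all genes. The count of negative differences rests on single arrays: it was 9 without wild-type replicate 1, 34 without wild-type replicate 2, 32 without knockout replicate 1 and 13 without knockout replicate 2. It was 35 of 39 when arrays were scaled by their median, a scaling that also moved the median of all genes to -0.13 and that of the 39 genes to -0.13.

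**Figure D1:**
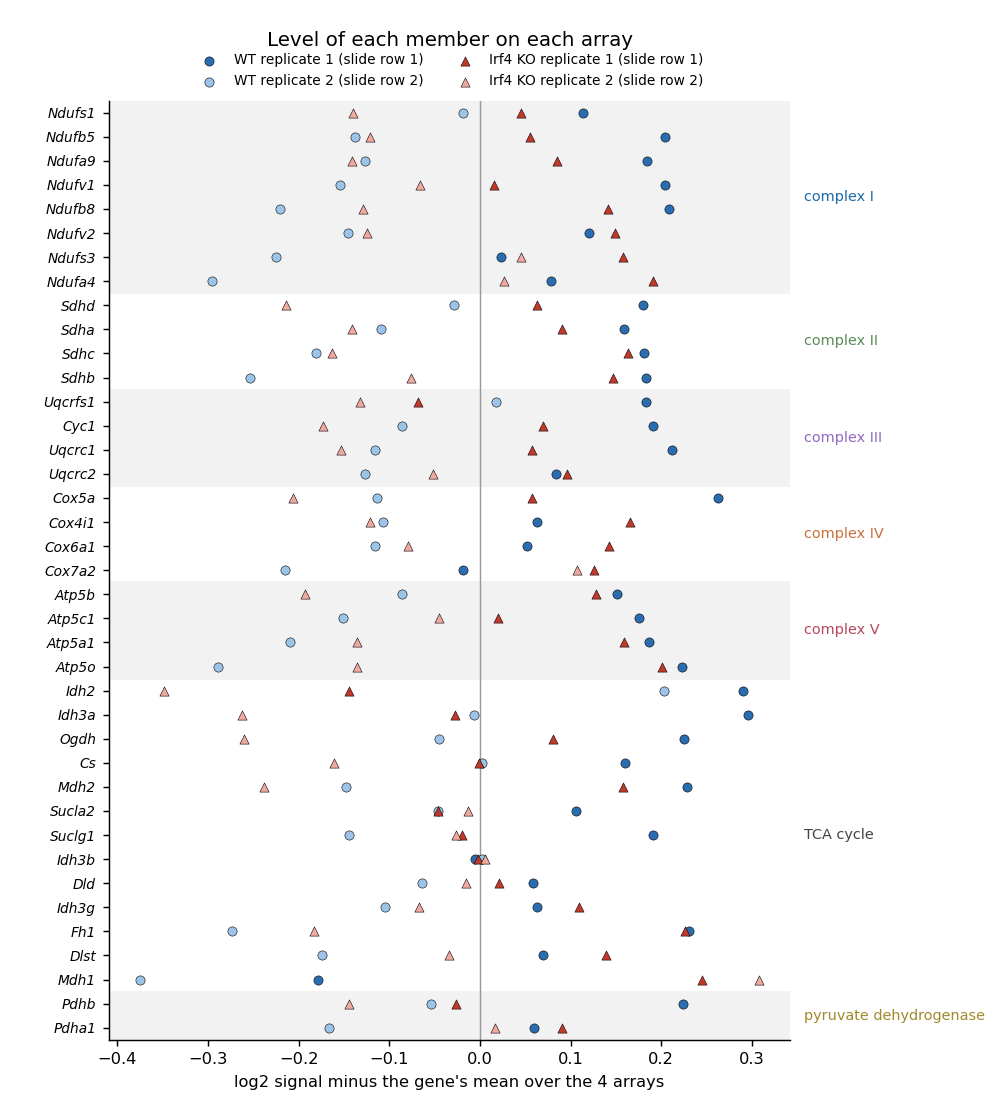
Log2 signal of each of the 39 genes on each of the 4 arrays (horizontal axis, minus the gene's mean over the arrays), grouped by complex or pathway and coloured by genotype. In most genes the replicate 1 arrays of both genotypes lie to the right of the replicate 2 arrays, and the genotypes overlap in all but 7 genes.

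The plot of levels on each array shows how little the genotypes were separated. In 4 genes (Idh2, Idh3a, Cs and Uqcrfs1) the higher knockout array was below the lower wild-type array, in 3 (Mdh1, Ndufs3 and Cox7a2) the order was the opposite, and in the rest the genotypes overlapped. Over the array both knockout values were below in 21.3% of genes and above in 17.9%. The data set bounds on each difference. The 95% intervals of limma ran from -0.95 to 1.01 over the 39 genes, which is 1.94-fold lower to 2.01-fold higher. For the 37 genes other than Idh2 and Mdh1 they ran from -0.82 to 0.76, or 1.76-fold lower to 1.69-fold higher, and each of these intervals included 0. An interval reached 0.42 to 0.68 to either side of its difference, with a median reach of 0.51. Smaller differences were in general not detectable with 2 arrays per genotype, even without adjustment over all genes. A call at an adjusted p under 0.05 needed more. Idh2 (-0.49) and Mdh1 (0.55), whose intervals did not include 0, had limma adjusted p of 0.395 and 0.322. Cox6a2, a gene outside the set, had a limma adjusted p of 0.0543 at a difference of 2.03.

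**Figure D2:**
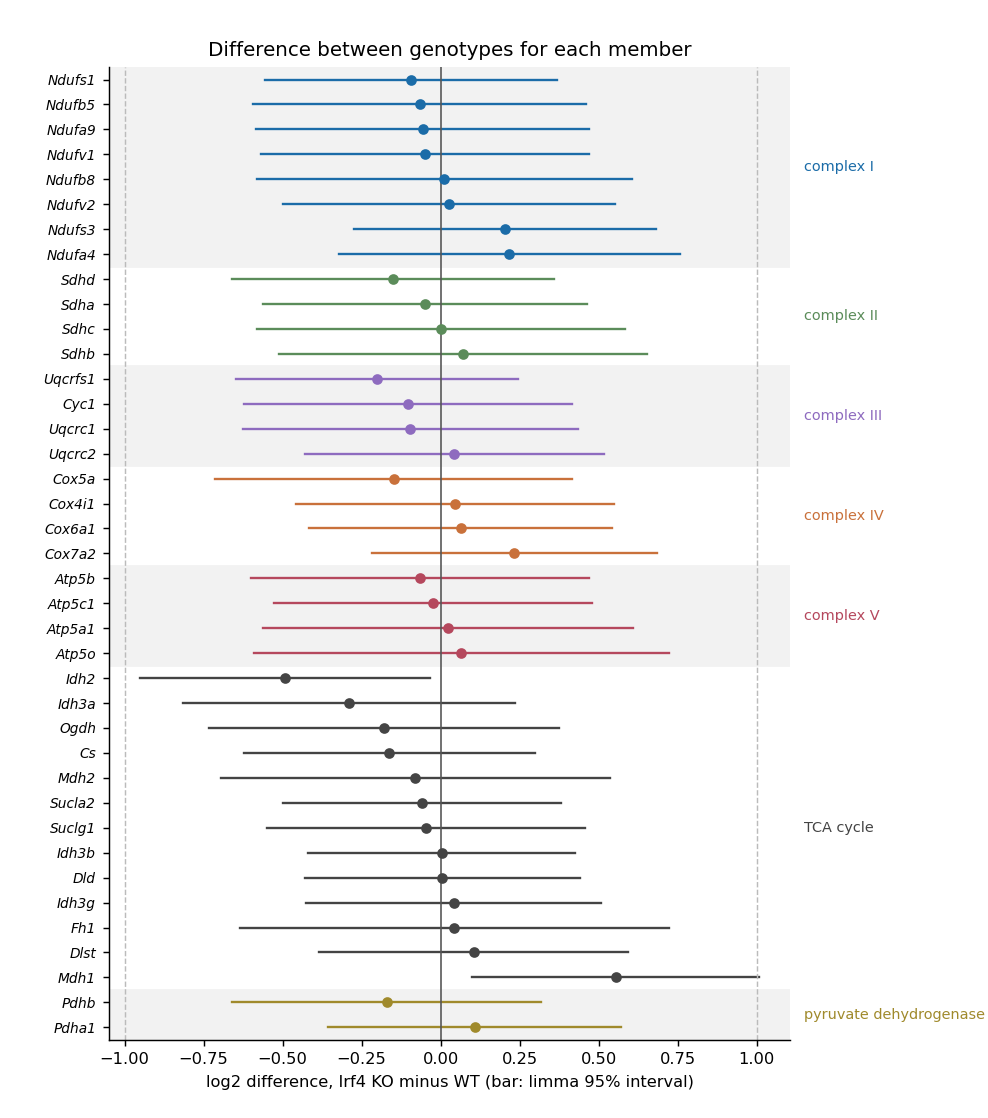
Log2 difference of each gene, knockout minus wild type, with the 95% interval of limma as a bar (n = 2 per genotype). The dashed lines mark differences of 1 in either direction. Of the 39 intervals, only those of Idh2 and Mdh1 do not include 0.

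Complex I takes electrons from NADH, and 0 of its 8 subunits in the set passed the test, with a smallest limma adjusted p of 0.850. Their median difference was -0.02, with 4 negative and 4 positive. Ndufa4, first described in complex I and later found with complex IV, read 5.70, 5.33, 5.81 and 5.65, a difference of 0.22 ± 0.21 (SE, n = 2 per genotype) with a 95% interval of -0.32 to 0.76. Wild-type replicate 2 was the lowest of the 4 arrays, and the genotypes overlapped. Ndufs3, a subunit of the arm that extends into the matrix, read 5.98, 5.74, 6.12 and 6.01. Both knockout arrays were higher than both wild-type arrays, by 0.20 ± 0.19 on average, with an adjusted p of 0.850 by limma. Ndufs1, the largest subunit and a carrier of iron-sulphur clusters, read 4.90, 4.77, 4.83 and 4.65, a difference of -0.09. Ndufb8, a subunit of the membrane arm, read 7.09, 6.66, 7.02 and 6.75, so that its replicates within a genotype stood further apart than the genotype means, which differed by 0.01. Ndufa9, Ndufb5, Ndufv1, which binds NADH, and Ndufv2 differed by -0.07 to 0.02.

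Complex II, succinate dehydrogenase, is shared by the respiratory chain and the TCA cycle, and in each of its 4 subunits both replicate 1 arrays were higher than both replicate 2 arrays. Sdha, the flavoprotein that oxidises succinate, read 4.49, 4.22, 4.42 and 4.19. Sdhb, the iron-sulphur subunit, read 7.24, 6.80, 7.21 and 6.98. The genotype means differed by -0.05 and 0.07, and the genotypes overlapped in both genes. The membrane anchor Sdhc read 3.93, 3.57, 3.91 and 3.58, with differences of -0.02 between the replicate 1 arrays and 0.02 between the replicate 2 arrays, and a 95% interval of -0.58 to 0.58. Sdhd, the other anchor, read 5.49, 5.28, 5.37 and 5.10, a difference of -0.15 ± 0.20 with a limma adjusted p of 0.921. The knockout was lower at both replicate numbers for Sdhd, but the genotypes overlapped. The median over the 4 subunits was -0.02.

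Complex III passes electrons from ubiquinol to cytochrome c, and 3 of its 4 subunits were negative, with a median difference of -0.10. Uqcrfs1, the Rieske iron-sulphur protein, read 5.30, 5.13, 5.05 and 4.98. Both knockout arrays were below both wild-type arrays, with a difference of -0.20 ± 0.17 and an adjusted p of 0.832 by limma. Cyc1, cytochrome c1, read 6.27, 5.99, 6.14 and 5.90, and the core protein Uqcrc1 read 6.57, 6.24, 6.41 and 6.20. Each differed by -0.10, less than the distance between its wild-type replicates, and the genotypes overlapped. Uqcrc2, the other core protein, read 5.73, 5.52, 5.74 and 5.59, a difference of 0.04. The 95% intervals of the 4 subunits ran from -0.65 to 0.52.

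Complex IV, cytochrome c oxidase, gave a median difference of 0.05 over the 4 subunits measured (-0.05 with median scaling), none of which passed. Cox7a2, a small structural subunit, read 7.52, 7.32, 7.66 and 7.64. Both knockout arrays were higher, by 0.23 ± 0.18 on average, with a 95% interval of -0.22 to 0.69 and a limma adjusted p of 0.791. Cox5a, a matrix-facing subunit, lay in the other direction at 8.11, 7.73, 7.90 and 7.64, a difference of -0.15 ± 0.22. Its genotypes overlapped. Cox4i1, the isoform of subunit 4 found in most tissues, read 8.04, 7.87, 8.14 and 7.86, and Cox6a1, the isoform of subunit 6a outside muscle, read 9.25, 9.08, 9.34 and 9.12. Their genotype means differed by 0.04 and 0.06, and in both genes the replicates lay further apart than that.

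Complex V gave differences of -0.06 to 0.07 over its 4 subunits, all of which belong to the catalytic head or its stalks, and none passed the test. Atp5b, the catalytic beta subunit, read 8.52, 8.28, 8.49 and 8.17. Atp5c1, the rotating gamma subunit, read 7.72, 7.39, 7.56 and 7.50, and the alpha subunit Atp5a1 read 8.30, 7.90, 8.27 and 7.98. Their differences were -0.06, -0.02 and 0.02. Atp5o, which joins the head to the outer stalk, read 8.22, 7.71, 8.20 and 7.86. Its replicate 1 arrays were higher than its replicate 2 arrays by 0.51 in the wild type and 0.34 in the knockout, while the genotype means differed by 0.07 ± 0.25. The 95% intervals of the group ran from -0.60 to 0.72.

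The group of 13 enzyme genes of the TCA cycle or its branches had a median difference of -0.05. It held the widest differences of the set in both directions, those of Idh2 and Mdh1, and its other genes lay between -0.29 and 0.10. Idh2, the NADP-dependent mitochondrial isocitrate dehydrogenase, read 4.60 and 4.51 in the wild type and 4.16 and 3.96 in the knockout. The knockout was lower at both replicate numbers, with differences of -0.43 and -0.55, and the genotypes did not overlap. The mean difference was -0.49 ± 0.18 (SE, n = 2 per genotype), 1.41-fold lower, with a 95% interval of -0.95 to -0.03. Its limma p was 0.0400 unadjusted and 0.395 adjusted over all genes tested, so it did not pass. Mdh1, the cytosolic malate dehydrogenase of the malate-aspartate shuttle, lay the other way, at 4.79 and 4.59 in the wild type and 5.22 and 5.28 in the knockout. The genotypes again did not overlap, and the differences at the 2 replicate numbers were 0.42 and 0.68. The mean difference was 0.55 ± 0.18, 1.47-fold higher, with a 95% interval of 0.10 to 1.01, a limma p of 0.0261 unadjusted and an adjusted p of 0.322. A further probe for each gene gave -0.43 for Idh2 and 0.49 for Mdh1, in the same direction. Both genes kept their sign under each of the 13 alternative settings, and leaving out single arrays gave -0.59 to -0.39 for Idh2 and 0.46 to 0.65 for Mdh1.

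The NAD-dependent isocitrate dehydrogenase, a separate enzyme made of 3 kinds of subunit, gave differences of -0.29 to 0.04 over those subunits, none past the test. Its catalytic subunit Idh3a read 3.83, 3.53, 3.51 and 3.27. Both knockout arrays were lower, but wild-type replicate 2 and knockout replicate 1 were close, and the difference of -0.29 ± 0.20 had a limma adjusted p of 0.766. Idh3b read 3.90, 3.91, 3.90 and 3.91, which puts the replicates and genotypes at the same level, with a 95% interval of -0.42 to 0.43 for the difference. Idh3g differed by 0.04. Cs, citrate synthase, which opens the cycle, read 6.59, 6.44, 6.43 and 6.27. Its knockout arrays were both lower, with a difference of -0.16 and a limma adjusted p of 0.895, and a further probe gave -0.32. Ogdh, the first component of the oxoglutarate dehydrogenase complex, read 4.74, 4.47, 4.59 and 4.25, a difference of -0.18 with overlapping genotypes. The other components of that complex, Dlst and Dld, differed by 0.10 and 0.01. The succinyl-CoA synthetase genes Suclg1 and Sucla2 differed by -0.05 and -0.06, fumarase (Fh1) by 0.04 and the mitochondrial malate dehydrogenase Mdh2 by -0.08. Mdh2 and Mdh1, which catalyse the same reaction in different compartments, therefore did not share a direction, and the difference between them was not tested.

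Pyruvate dehydrogenase was represented by both genes of its first component. Pdhb read 4.70, 4.43, 4.45 and 4.34, and Pdha1 read 3.03, 2.81, 3.07 and 2.99. The difference was -0.17 for Pdhb and 0.11 for Pdha1, with limma adjusted p of 0.897 and 0.944, and the genotypes overlapped in both.

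The replicate arrays of a genotype differed in these genes more than the genotypes did. Replicate 1 was higher than replicate 2 in 38 of the 39 genes in the wild type and in 36 in the knockout. It was higher in both genotypes in 36 genes, or 92.3%, against 38.6% of all genes tested. The median gap between replicates was 0.27 in the wild type and 0.20 in the knockout, and the mean of both gaps had a median of 0.23, against 0.06 over all genes. For 31 of the 39 genes (79.5%, against 51.9% of all genes) the gap between replicates was larger than the difference between genotypes. The median of the 39 genes, each centred on its own mean, was 0.18 and -0.13 on the wild-type arrays and 0.09 and -0.13 on the knockout arrays. Over all genes the same medians were 0.02, -0.01, 0.03 and -0.05. The replicate number is also the row of the array on the single slide. Row 1 held replicate 1 of both genotypes, and row, experiment and replicate number cannot be told apart. The gap depended on the scaling. After quantile normalization replicate 1 was higher in both genotypes in 23 of 39 genes (59.0%, against 35.1% of all genes), the median gap was 0.09, and the gap exceeded the genotype difference in 18 genes (46.2%, against 48.1% of all genes). With normexp background correction replicate 1 was higher in both genotypes in 33 genes (84.6%, against 34.5% of all genes), with a median gap of 0.25 against 0.02. With median scaling it was so in 39 genes, against 56.6% of all genes, with a median gap of 0.40 against 0.24.

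**Figure D3:**
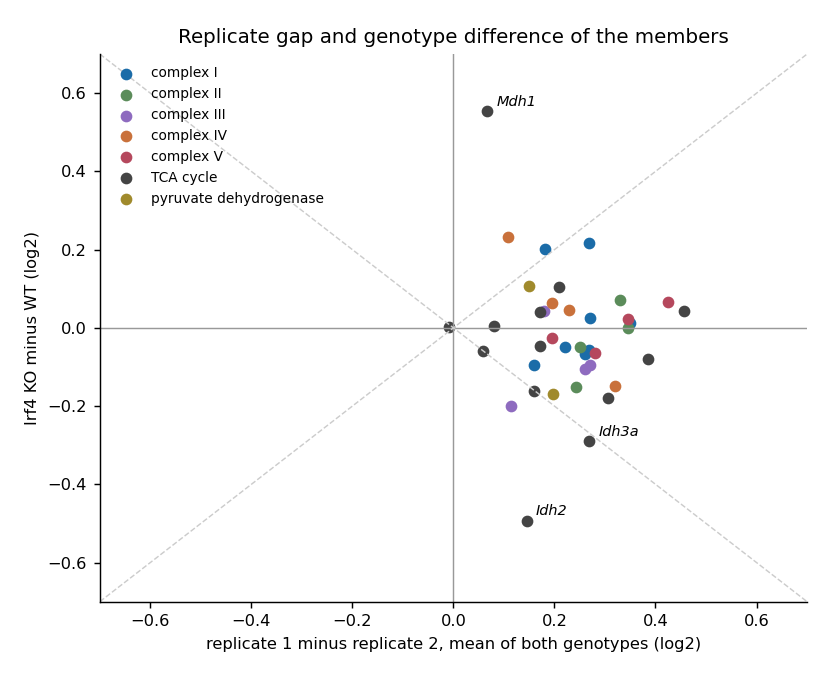
Each point is 1 of the 39 genes, with the gap between replicate 1 and replicate 2 (mean of both genotypes, log2) on the horizontal axis and the difference between knockout and wild type (log2) on the vertical axis. Colours mark the complex or pathway, and on the dashed lines gap and difference are equal in size. Most points lie to the right of 0 and close to 0 in height, and the gap is larger than the genotype difference in 31 of 39 genes.

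The plot of replicate gap against genotype difference shows 8 genes whose genotype difference is larger than their gap: Idh2, Idh3a, Cs, Uqcrfs1, Mdh1, Ndufs3, Cox7a2 and Sucla2. Apart from Sucla2 these are the genes in which the genotypes did not overlap, and without overlap the difference exceeds the gap by arithmetic. Sucla2 had a difference of -0.0593 and a gap of 0.0592, which are nearly equal in size. Of the 12 genes with more than 1 probe, 8 of the 13 further probes had the sign of the brightest probe. The 4 genes with a probe of the other sign were Atp5b, Atp5o, Ndufv1 and Sdha, whose differences at the brightest probe were -0.06, 0.07, -0.05 and -0.05. Many genes of this set have processed pseudogenes in the mouse genome, and whether a probe also binds their transcripts was not tested.

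Promoter sequence was read for 33 of the 40 genes from RefSeq (GRCm38.p6), as the 250 bases before each annotated start, in 39 windows, of which Ogdh supplied 6 and Atp5c1 2, some of them overlapping. Each window was searched on both strands for motifs of factors known for respiratory genes and for T cell activation, and compared with 32851 windows of all genes and with the 21263 of them that belong to coding genes. The NRF1 motif was in 12.8% of the windows of these genes, in 3.74% of all windows and in 5.18% of coding ones. It was found for Atp5c1, Cox6a1, Sdha, Sdhd and Sucla2. The ETS motif CCGGAAG was in 10.3% against 6.91% and 8.98% (Cox6a1, Idh3g, Ndufs3 and Sdhd). The NF-Y motif CCAAT was in 43.6% against 33.8% and 35.4%, and those windows belong to 13 of the 33 genes. The AP-1 motif TGANTCA was in 5.13% against 6.75% and 6.13%, which is 2 of the 39 windows (Atp5c1 and Ndufa9). The interferon-stimulated response element, bound by IRF proteins, was also in 2 of the 39 windows (Ndufa9 and Ndufs3), or 5.13% against 2.98% and 2.96%. A composite of AP-1 and IRF motifs was not searched for. The composite ETS-IRF motif, which IRF4 can bind together with an ETS factor, was in 0 windows of these genes and in 2.30% of all windows (2.16% of coding ones). The ERR motif TCAAGGTCA and the YY1 motif were also in 0 windows, against 0.387% and 0.207% of all. These are matches of letters in a short window and not binding sites, and the array data hold no binding measurement. The windows of Idh2 and Mdh1 are shown because these genes had the largest differences, and those of Sdhd and Cox6a1 because they hold both the NRF1 and the ETS motif and belong to genes with small differences. Each is written 5′ to 3′ on the gene's strand, here the minus strand, ending at the base before the start, with motif matches on either strand in capitals (CCAAT in Idh2 and Mdh1, the NRF1 match GCGCACGCGC in Sdhd, the NRF1 matches GCGCATGCGC and GCGCAGGCGC in Cox6a1, the ETS match CTTCCGG on the other strand in both, and CCAAT in Cox6a1). They lie at chr7:80115351-80115600 (Idh2), chr11:21571935-21572184 (Mdh1), chr9:50603850-50604099 (Sdhd) and chr5:115348959-115349208 (Cox6a1).
Idh2: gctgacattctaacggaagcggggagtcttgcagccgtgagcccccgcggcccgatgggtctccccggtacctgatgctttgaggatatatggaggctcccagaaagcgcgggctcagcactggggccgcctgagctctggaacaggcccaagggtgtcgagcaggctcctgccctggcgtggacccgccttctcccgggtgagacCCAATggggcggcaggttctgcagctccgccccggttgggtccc
Mdh1: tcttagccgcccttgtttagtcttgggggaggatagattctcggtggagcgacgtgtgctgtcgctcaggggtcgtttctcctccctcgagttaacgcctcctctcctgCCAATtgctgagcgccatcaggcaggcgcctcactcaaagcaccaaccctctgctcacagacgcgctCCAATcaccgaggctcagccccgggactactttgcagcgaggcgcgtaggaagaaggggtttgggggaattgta
Sdhd: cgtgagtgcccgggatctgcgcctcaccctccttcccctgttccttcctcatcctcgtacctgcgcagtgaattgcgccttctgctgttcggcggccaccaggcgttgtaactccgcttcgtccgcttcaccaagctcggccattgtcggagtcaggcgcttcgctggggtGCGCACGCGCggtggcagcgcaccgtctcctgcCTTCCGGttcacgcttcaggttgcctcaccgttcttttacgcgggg
Cox6a1: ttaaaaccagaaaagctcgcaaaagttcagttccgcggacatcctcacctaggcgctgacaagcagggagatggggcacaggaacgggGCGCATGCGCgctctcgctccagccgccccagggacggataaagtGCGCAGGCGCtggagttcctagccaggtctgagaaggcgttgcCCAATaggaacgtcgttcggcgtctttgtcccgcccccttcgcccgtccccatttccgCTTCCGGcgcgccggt

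The Idh2 and Mdh1 windows, which belong to genes with differences of opposite direction, both hold CCAAT and neither the NRF1 nor the ETS motif. Sdhd and Cox6a1 share the NRF1 and ETS motifs and differed between the genotypes by -0.15 and 0.06.

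Beyond the 40 genes, 160 further genes of the same machinery were listed, of which 147 were on the array and 144 were tested. None of the 144 was called by limma at an adjusted p under 0.05, against 0.736% of all genes, and 3 were higher and 4 lower at an unadjusted p under 0.05. Their median difference was 0.02, with 63 negative and 81 positive, and with median scaling it was -0.08, with 112 negative and 32 positive. The 13 mitochondrially encoded subunits had no matched probe, so nuclear and mitochondrial subunits of the complexes could not be compared.

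**Figure D4:**
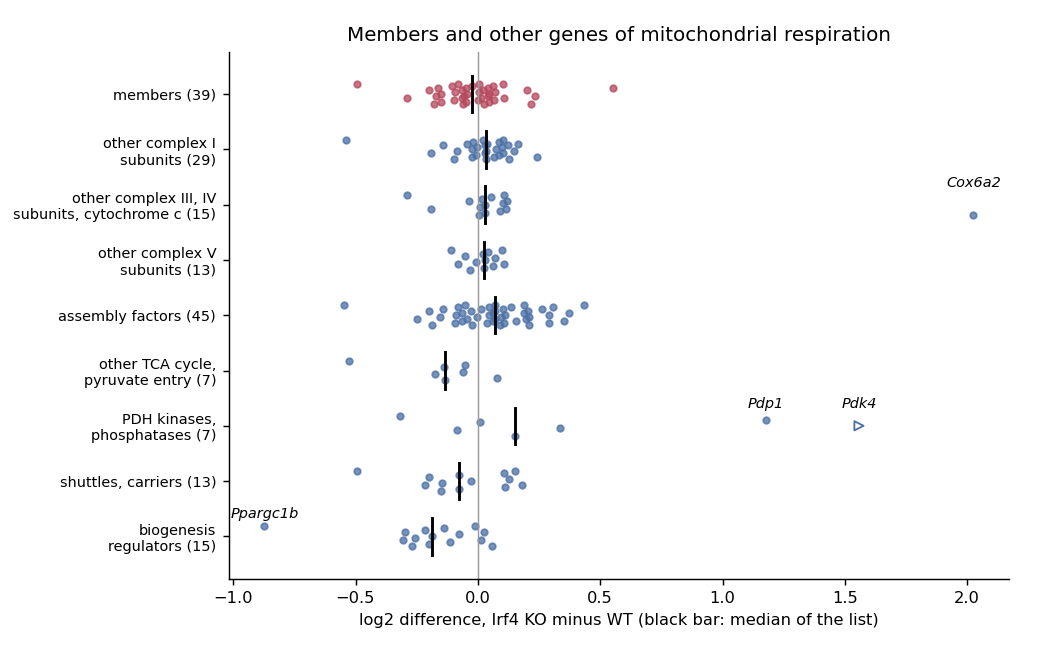
Log2 difference, knockout minus wild type, of each tested gene in the set and in the lists of other genes of mitochondrial respiration. Each point is a gene, the black bar is the median of the list and the number in brackets is the number of genes. The open triangle is Pdk4 at its lower bound, 1.56, since its wild-type signal was not above background, and Cox6a2 (2.03) and Pdp1 (1.18) also lie far to the right.

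The plot of the lists shows most subunits close to 0, with Cox6a2 and Ndufv3 furthest from it. In the other complex I subunits, 18 of 29 were positive, with a median of 0.03, and with median scaling 5 of 29, with a median of -0.08. The largest difference there was that of the accessory subunit Ndufv3, at 8.11, 8.12, 7.64 and 7.51, which is -0.54 ± 0.17 with a limma adjusted p of 0.314. Its genotypes did not overlap. Ndufa7, Ndufab1, the mitochondrial acyl carrier protein, and Ndufb3 differed by 0.24, -0.19 and 0.16. The other complex V subunits ran from -0.11 (Atpif1, the inhibitor of the ATP synthase) to 0.11 (Atp5g3), with Atp5g1 and Atp5g2, which encode the same membrane rotor subunit as Atp5g3, at -0.08 and 0.10. Among the other subunits of complexes III and IV and cytochrome c, 12 of 15 were positive, with a median of 0.03, and with median scaling 3 of 15, with a median of -0.08. Cox6a2, the muscle isoform of subunit 6a, read -3.21 and -3.78 in the wild type and -1.46 and -1.47 in the knockout, above background on all 4 arrays. Its wild-type readings were dim, as the lowest signal well above background averaged -4.44 on those arrays. The knockout was higher by 2.03 ± 0.25, 4.07-fold, without overlap, and its limma adjusted p of 0.0543 just missed the threshold. It was called in 6 of 13 alternative settings, in which its adjusted p ran from 5.36e-06 to 0.524 and its difference from 0.91 (normexp) to 2.31. Cox6a1, the form found in most tissues, differed by 0.06. Cox7a1, another muscle isoform, lay at -0.29, Cox8a at -0.19 and Cox7b at 0.12.

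Pyruvate dehydrogenase is switched off by phosphorylation by its kinases (Pdk1 to Pdk4) and switched on again by its phosphatases (Pdp1 and Pdp2), and members of both classes were higher in the knockout without passing the test. Pdk4 was not well above background on the wild-type arrays, at -5.02 and -6.11, and was so on both knockout arrays, at -2.57 and -3.20. It was at least 2.94-fold higher in the knockout, a bound taken against the lowest signal well above background on the wild-type arrays, with a limma adjusted p of 0.0868. That p rests on wild-type values not above background, and with normexp correction, which adds an offset to all signals, the fitted difference of Pdk4 was 0.45. Pdp1 read -1.31 and -1.75 in the wild type and -0.36 and -0.33 in the knockout, which is 1.18 ± 0.22 or 2.26-fold higher (0.86 with normexp), with a limma adjusted p of 0.114. Neither gene's genotypes overlapped. Pdp1 was called in 2 of 13 alternative settings, with adjusted p from 0.00795 to 0.780. Pdk1 lay the other way, at 4.22, 4.45, 3.98 and 4.05, a difference of -0.32 ± 0.18 with an adjusted p of 0.658 by limma and no overlap. Pdk2, Pdk3 and Pdp2 differed by 0.15, -0.09 and 0.34.

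Of 7 further genes of the TCA cycle and pyruvate entry, 6 were negative, with a median of -0.14, against 53.3% and -0.02 over all genes. Pcx, pyruvate carboxylase, which refills the cycle with oxaloacetate, read 0.70, 0.80, 0.40 and 0.04, a difference of -0.53 ± 0.20 with a limma adjusted p of 0.433 and no overlap. Suclg2, the mitochondrial pyruvate carrier subunit Mpc1 and Dlat, the acetyl transferase of pyruvate dehydrogenase, differed by -0.18, -0.14 and -0.14. Of the 13 shuttles and carriers, 8 were negative (53.3% over all genes). Vdac1, the channel of the outer membrane, read 7.09, 6.99, 6.76 and 6.33, a difference of -0.49 ± 0.22 with an adjusted p of 0.510 by limma, and Vdac3 differed by -0.22. The aspartate-glutamate carrier Slc25a13, which acts with Mdh1 in the malate-aspartate shuttle, differed by -0.20, and Gpd2, of the glycerol phosphate shuttle, by 0.18.

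No assembly factor and no regulator of mitochondrial biogenesis passed the test. Of 45 assembly factors tested, 29 were positive, with a median of 0.07 against -0.02 over all genes, but with median scaling 16 were positive and the median was -0.04 against -0.13. Both knockout arrays were above both wild-type arrays in 13 of the 45 (17.9% over all genes) and below them in 3 (21.3% over all genes). The copper chaperone Sco1, which serves complex IV, lay lower, at -1.26, -1.05, -1.69 and -1.71, a difference of -0.55 ± 0.18 with a limma adjusted p of 0.333 and no overlap. Ttc19, Sdhaf4 and Pet100, which assist complexes III, II and IV, were higher by 0.43, 0.37 and 0.35 without overlap. Of 15 regulators tested, 12 were negative, with a median of -0.19, against 53.3% and -0.02 over all genes. Under the other scalings 12 to 15 were negative, with medians of -0.29 to -0.17. The 15 and the -0.29 came with median scaling, where 69.3% of all genes were negative, with a median of -0.13. Under both the main and the median scaling 4 of the 15 lay above the median of all genes. In 5 of the 15 both knockout arrays were below both wild-type arrays, against 21.3% of all genes. Ppargc1b, a coactivator of respiratory genes, read 0.07 and -0.10 in the wild type and -0.72 and -1.06 in the knockout. The difference of -0.87 ± 0.20, or 1.83-fold lower, came without overlap, with a limma adjusted p of 0.181, and was called in 2 of 13 alternative settings. Ppargc1a was not well above background on any array. The mitochondrial DNA polymerase Polg, the helicase Twnk and the transcription factor Tfb2m differed by -0.31, -0.30 and -0.27 without overlap. Tfam, Nrf1 and Esrra, which bind mitochondrial DNA or the promoters of respiratory genes, differed by -0.19, -0.20 and -0.08 with limma adjusted p of 0.862 to 0.962.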

How the data were processed

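Each sample is 1 one-colour array (Cy3) on a single Agilent slide, scanned with Feature Extraction 11.0.1.1 per the file headers (9.1 per the submitters' processing notes). The deposited scanner files hold an intensity per spot (processed signal), which the authors' software had already background-corrected. The authors' deposited value table holds log2 values, scaled and centred per probe, with column medians of -0.17, 0.10, -0.11 and 0.12, and was used as an alternative. Here control spots and 137 probes flagged as outliers were left out, log2 signals were scaled to the array's 75th percentile, and each gene was read by its brightest probe. Probes were named by accession through RefSeq gene tables: 32994 probes gave 22911 symbols, and 23611 probes had no symbol. The 20505 genes well above background on both arrays of a genotype were tested with limma 3.58.1 (R 4.3.3; lmFit and eBayes, Benjamini-Hochberg, adjusted p under 0.05), which was first tested on simulated data. No spot was saturated, and 4 arrays limit the precision. The labels name 2 independent experiments per genotype but not the mice, so p-values measure the spread between these samples. Same-numbered arrays deviated together (r = 0.348 over all genes, 0.524 over the 39 genes), but 2 pairs do not establish a pairing. Wild-type arrays lie in slide column 1 and knockout arrays in columns 2 and 3, so column and genotype cannot be told apart. The members and lists were chosen with earlier results of these data known. A further marker list is not reported here. Array values are printed for the 3 largest differences and the smallest in each complex or pathway, and up to 4 genes of each other list are named, with Pdk1 to Pdk4 and main regulators always; Cs and Ogdh were added after their values were seen. A planned normexp correction on the mean signal used the median signal, the one the files used here hold. Alternatives were other scalings, background correction, filters, probe averaging, moderation, the authors' values, a replicate block and leaving out each array.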

Additional observations from a re-analysis of the deposited data

How the results depend on the processing

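No gene of the set was called in either direction under any of the 13 alternatives run, and the smallest adjusted p of a member ranged from 0.0866 (trend and robust moderation) to 0.970 (no filter). With the replicate number as a block the smallest was 0.258, and no member changed its call. The median of the 39 genes stayed between -0.13 (median scaling) and 0.003 (mean of probes), and between -0.18 and 0.12 with 1 array left out, within the spread of the array medians (SD 0.19). The count of negative differences was 20, became 35 with median scaling, where 69.3% of all genes were negative, and ran from 9 to 34 with 1 array left out. The count of genes called over the whole array, 151, was the least stable: 1042 with median scaling, 1 with quantile normalization, 760 with normexp, 797 with trend and robust moderation, 260 with the authors' values, 0 without a filter (2099 at an unadjusted p under 0.05) and 0 with the replicate block (3195 unadjusted). It ran from 0 to 487 with 1 array left out, with 0 without wild-type replicate 1 (1864 unadjusted) or 2 (1678 unadjusted), 487 without knockout replicate 1 and 208 without knockout replicate 2; the lone array is then assumed to vary like the other genotype. The cause was not tested. Of the 144 other genes, 2 were called with median scaling (Cox6a2 and Pdk4, the latter not above background in the wild type), 3 with normexp (Cox6a2, Pdp1, Ppargc1b), 4 with trend and robust moderation (these and Pdk4), 1 with the stricter filter and 1 with the authors' values (Cox6a2), and 0 to 1 with 1 array left out. Differences near 0 changed sign. With median scaling they were -0.10 for Ndufb8, -0.038 for Sdhb, -0.11 for Sdhc and for Idh3b, -0.065 for Uqcrc2, -0.045 for Cox6a1, -0.064 for Cox4i1, -0.043 for Atp5o, -0.086 for Atp5a1, -0.0016 for Pdha1, -0.0018 for Atp5g3 and -0.0096 for Atp5g2. Quantile normalization gave -0.017 for Ndufb8, -0.0090 for Cox4i1 and -0.043 for Atp5a1, and normexp -0.032 for Sdhc, -0.020 for Atp5a1 and -0.11 for Idh3b. The mean of probes gave 0.0041 for Atp5b and -0.11 for Ndufa7, and the authors' values -0.0023 for Ndufb8, -0.014 for Sdhc and -0.011 for Idh3b. With 1 array left out the ranges that crossed 0 were -0.20 to 0.23 for Ndufb8, -0.15 to 0.29 for Sdhb, -0.18 to 0.084 for Sdha, -0.18 to 0.18 for Sdhc, -0.24 to 0.034 for Cyc1, -0.26 to 0.068 for Uqcrc1, -0.062 to 0.15 for Uqcrc2, -0.34 to 0.039 for Cox5a, -0.047 to 0.17 for Cox6a1, -0.10 to 0.19 for Cox4i1, -0.19 to 0.32 for Atp5o, -0.23 to 0.10 for Atp5b, -0.19 to 0.14 for Atp5c1, -0.17 to 0.22 for Atp5a1, -0.0012 to 0.0075 for Idh3b and -0.0056 to 0.22 for Pdha1. Among the other genes they were -0.42 to 0.042 for Ndufab1, -0.40 to 0.015 for Cox8a, -0.066 to 0.28 for Atp5g3, -0.10 to 0.30 for Atp5g2, -0.29 to 0.13 for Atp5g1, -0.47 to 0.12 for Suclg2, -0.33 to 0.059 for Mpc1, -0.093 to 0.45 for Gpd2 and -0.13 to 0.44 for Pdk2. Idh2, Mdh1 and 36 other named genes kept their sign in every alternative run for them.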
